A study of Mus musculus with 48 samples.

Results

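The CCR4-NOT complex shortens the poly(A) tails of mRNAs, and 7 of its subunits were followed here through RNA-immunoprecipitation sequencing (RIP-seq) of 4T1 cells. They were taken by gene name from the deposited count table and are 7 of its 26899 gene models: *Cnot1*, *Cnot2*, *Cnot3*, *Cnot6*, *Cnot6l*, *Cnot7* and *Cnot8*. 4T1 is a mouse mammary tumor cell line, labelled with strain BALB/cfC3H. All cells carried a lentiviral construct and were cultured alike: either the control vector, or human CNOT7 with an N-terminal FLAG tag driven by a murine Pol2 promoter, in its wild type form or as the mutant D40A, M141R or E247A/Y260A. Of the mutants, D40A cannot remove poly(A) tails, M141R cannot join the scaffold CNOT1, and E247A/Y260A has lost the contact with the adaptor TOB1. RNA was taken from the lysate (input) and from the material that the M2 anti-FLAG antibody pulled down without crosslinking (RIP), so that vector cells, which lack the FLAG tag, show the background of the pulldown. The 5 constructs, each with input and RIP, gave 10 groups and 48 libraries, with 4 replicates in the D40A groups and 5 in all others. The replicates are called biological, numbered 6 to 10, and nothing says whether they came from separate cultures, so the p-values measure only the spread between these samples.

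Removal of the poly(A) tail is the usual opening step of mRNA decay in the cytoplasm. CNOT1 is the long scaffold on which the complex is built. CNOT2 and CNOT3 bind it and each other and form the NOT module. The tail is cut by exonucleases of the CAF1 type, CNOT7 and its close relative CNOT8, and of the CCR4 type, CNOT6 and CNOT6L, which join the scaffold through the CAF1 subunit. TOB and BTG proteins bind CNOT7 or CNOT8 and bring the complex to chosen mRNAs. Sequences of the relatives are alike but not the same: in the annotation the coding sequences of *Cnot7* (285 residues) and *Cnot8* (292 residues) shared 72.3% of aligned bases, and those of *Cnot6* (557) and *Cnot6l* (555) shared 73.6%. In the 1 transcript per gene that was compared, neither pair shared any stretch of 36 bases.

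The 3 mutants change 4 codons of the human cDNA. The mouse gene has the matching residue at the same position in each case, and the stretch of the endogenous *Cnot7* transcript around each codon is shown to place the substitutions on the gene counted here. The sequences are of the coding transcript of *Cnot7* in the GENCODE M21 annotation of GRCm38, on the minus strand of chromosome 8, and the capitals mark the substituted codon.
D40A, codon GAC for Asp: tatgttgctatgGACaccgagtttcca
M141R, codon ATG for Met: gcagaacttcttATGacttcaggagtg
E247A, codon GAA for Glu: gaaatgttctttGAAgatcacattgat
Y260A, codon TAT for Tyr: tgtggtcacttaTATggccttggttct
The D40A codon lies at chr8:40507646-40507648 in exon 3, the M141R codon at chr8:40500802-40500804 in exon 4, and the E247A and Y260A codons at chr8:40494104-40494106 and chr8:40494065-40494067, both in exon 7. None of the 4 lies in an exon of a gene on the other strand. The table holds counts per gene and no reads, so whether any read came from the construct or carried a substitution was not tested.

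The libraries were shallow for genes of this level. Input libraries held 337861 to 826768 counts. RIP libraries held 1305627 to 10719137, but the 13 gene models with the most summed RIP counts, among them *Filip1l* and *Jarid2*, took 95.4% to 98.2% of each, which left 35265 to 377943 counts for all others (median 64312). For this reason levels are given as CPM, counts scaled to a common library total, computed on the counts outside those 13 models. A pair of libraries stood apart: D40A RIP replicate 9 had by far the most counts, with 377943 outside the 13 models, and CNOT7 input replicate 10 had 1.6% of its counts in the 13 models, against 8.4% to 21.1% in the other inputs. In that input 358 of 3848 tested genes lay at least 3 log2 units below the median of the other inputs. Counts on a model cannot be read as the level of its own mRNA. *B2m* summed to 297 counts over the 24 inputs while the overlapping *Patl2* on the other strand had 180673, *Gapdh* had a median of 2, and in 583 of 798 pairs of an antisense and a coding model the antisense model had more counts. The kit was directional and the strand setting of the counting is not given in the sources used here. Of 6 epithelial markers, *Krt7*, *Epcam* and *Cdh1* had medians of 15, 12.5 and 13 input counts and *Krt8*, *Krt18* and *Krt19* of 1, 2 and 1. Of the leukocyte, fibroblast and endothelial markers, *Ptprc*, *Lyz2*, *Col1a1*, *Col3a1* and *Cdh5* had medians of 0. *Pdgfra* had a median of 1, *Cd68* of 3 and *Pecam1* of 4.5. *Cd68* and *Pecam1* thus lay above *Krt8*, *Krt18* and *Krt19*, and these counts alone do not set the cell types apart.

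On GRCm38 the members lie on 5 chromosomes. The scaffold gene *Cnot1* (ENSMUSG00000036550) is at chr8:95719451-95807464 on the minus strand. Of the NOT module genes, *Cnot2* (ENSMUSG00000020166) is at chr10:116485161-116581511 on the minus strand and *Cnot3* (ENSMUSG00000035632) at chr7:3645268-3661109 on the plus strand. Of the CCR4-type genes, *Cnot6* (ENSMUSG00000020362) is at chr11:49671503-49712723 and *Cnot6l* (ENSMUSG00000034724) at chr5:96070333-96164171, both on the minus strand. *Cnot7* (ENSMUSG00000031601) spans chr8:40492540-40515847 on the minus strand, and its CAF1 relative *Cnot8* (ENSMUSG00000020515) spans chr11:58104153-58118594 on the plus strand.

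In 5 of the 7 genes another counted model runs on the opposite strand. *Zdhhc2* (ENSMUSG00000039470), which encodes a palmitoyltransferase, is on the plus strand at chr8:40423815-40510268 and shares 17729 bases of gene body with *Cnot7*. The shared exon sequence is short, at 4.24% of the *Cnot7* exon bases, with 57 of its 855 coding bases (6.67%). *Vps37a* overlaps the *Cnot7* gene body by 4065 bases and no exon base. *Leng1* shares 433 exon bases with *Cnot3*, 4930513N10Rik shares 132 with *Cnot1*, and 5330438D12Rik shares 232 with *Cnot2*. Gm12192 lies across an intron of *Cnot6* without sharing exon bases, and no counted model lies opposite *Cnot6l* or *Cnot8*. *Zdhhc2* had a median of 1173 counts in the inputs, where *Cnot7* had 78. The other opposite models were low, from 17 counts summed over the 24 inputs (Gm12192) to 349 (*Leng1*). Because of the strand result above, part of the counts on *Cnot7* could have come from *Zdhhc2* transcripts or the reverse, and this cannot be told apart in counts per gene.

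*Cnot7* was the only member with sizeable counts in input. It had 6 to 178 counts per library (median 78, 2013 in all), against 344 in all for *Cnot1*, 253 for *Cnot3*, 208 for *Cnot6l*, 149 for *Cnot6*, 82 for *Cnot8* and 61 for *Cnot2*. The counts rank the genes in part by length, since the annotated exons cover 17169 bases in *Cnot1* and 2636 in *Cnot8*. Per kilobase of exon, *Cnot7* had a median of 27.2 CPM over the 24 inputs and a range of 3.04 to 64.5. The lowest value was that of CNOT7 input replicate 10, and the next lowest was 16.2. *Cnot3* followed with a median of 3.29 CPM per kilobase (0.949 to 5.55), *Cnot8* with 3.03 (0 to 6.71), *Cnot1* with 1.83 (0.609 to 3.77), *Cnot6* with 1.74 (0.228 to 5.33), *Cnot6l* with 1.64 (0.572 to 4.39) and *Cnot2* with 1.08 (0 to 3.87). Each neighbouring pair below *Cnot7* overlapped almost entirely in range, whereas without CNOT7 input replicate 10 the lowest *Cnot7* value lay above the highest value of any other member. Of the summed CPM per kilobase of the 7 members, *Cnot7* held 67.5% ± 11.3 (SD, n = 24) in input, *Cnot3* 7.43%, *Cnot8* 6.74%, *Cnot6* 6.19%, *Cnot1* 4.59%, *Cnot6l* 4.54% and *Cnot2* 2.99%.

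**Figure D1:**
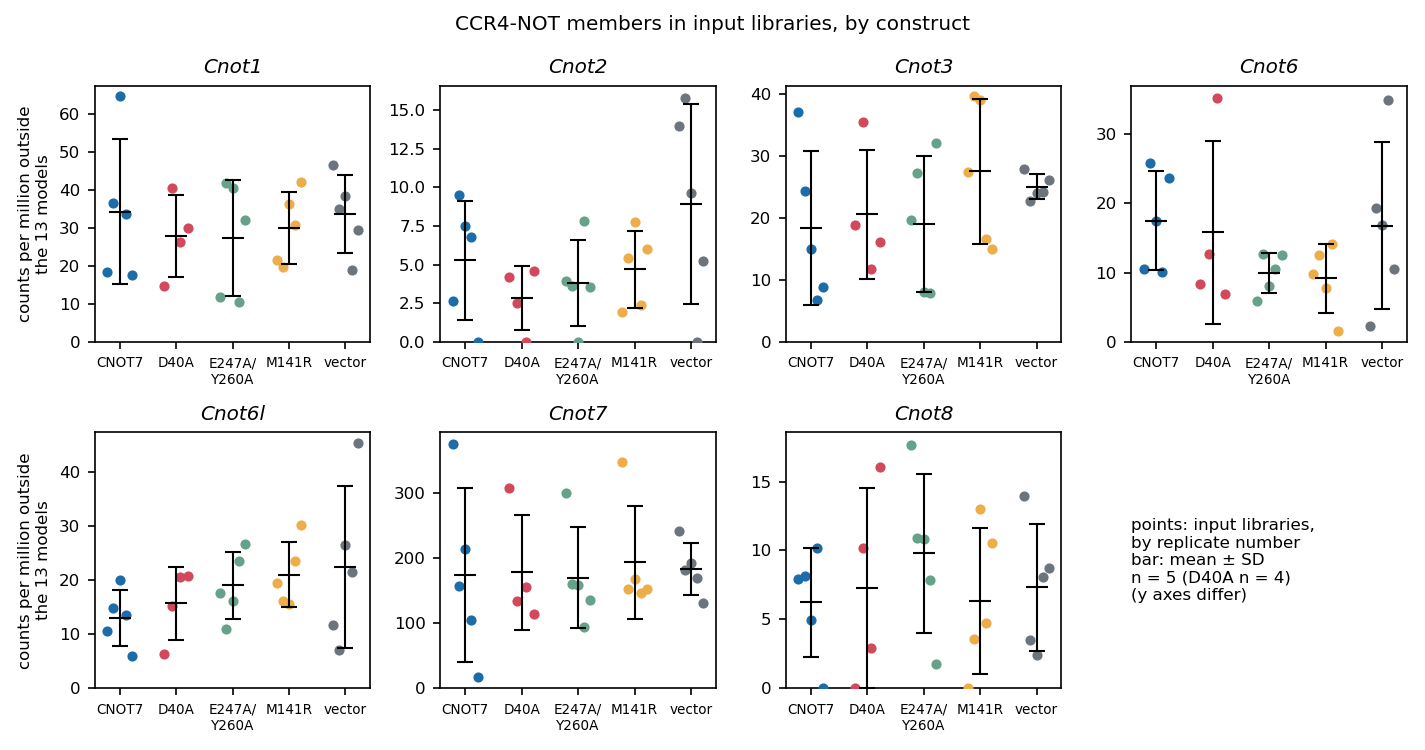
CPM outside the 13 most counted models in each input library (1 point per library, in order of replicate number) with mean and SD, by construct, in 1 panel per member with its own vertical axis. The *Cnot7* panel reaches 375 CPM, with CNOT7 input replicate 10 lowest at 17.7, and the constructs overlap in every panel.

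*Cnot7* in input did not differ detectably between constructs. Replicates 6, 7, 8, 9 and 10 of cells with wild type CNOT7 had 142, 116, 86, 31 and 6 *Cnot7* counts. M141R cells had 178, 85, 65, 62 and 101, and E247A/Y260A cells had 153, 88, 59, 36 and 76. D40A cells, for which there was no replicate 7, had 147, 53, 53 and 50, and vector cells had 104, 104, 80, 63 and 75. The groups overlapped, and their levels ran from 17.7 to 375 CPM with CNOT7, the widest range, and from 131 to 242 CPM with vector, the narrowest. Mean levels were 174 ± 134 CPM (SD, n = 5) with CNOT7, 178 ± 88.1 (n = 4) with D40A, 170 ± 77.8 with E247A/Y260A, 193 ± 86.6 with M141R and 183 ± 40.3 with vector (n = 5 each). Against vector, *Cnot7* had a log2 ratio of -0.08 with CNOT7 (SE 0.41, 95% interval -0.89 to 0.73), 0.14 with D40A (SE 0.44, -0.71 to 1.00), -0.07 with E247A/Y260A (SE 0.41, -0.88 to 0.73) and 0.07 with M141R (SE 0.41, -0.73 to 0.88). The intervals leave room for a change of nearly 1 log2 unit either way. All cells carry the endogenous gene, and within these intervals the counts on it were not higher in cells with the human cDNA. The libraries are bulk, so fewer cells with *Cnot7* RNA and less of it per cell cannot be told apart.

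The replicate number moved with the *Cnot7* level more than the construct did. Number 6 had the highest *Cnot7* CPM in each of the 5 constructs, at 242 to 375 CPM, against 153 to 182 for number 7, 134 to 214 for number 8, 94.0 to 169 for number 9 and 17.7 to 152 for number 10. Deviations of same-numbered inputs from their group means had correlations of 0.168 or more. How many other genes were highest in number 6 was not counted, so the pattern is not shown to be particular to *Cnot7*. The labels do not say what a number stands for beyond naming a sample, and what set the number 6 libraries apart was not tested.

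In the edgeR fit of the 24 inputs, 3848 genes passed the filter on low counts, among them 5 members. *Cnot2* and *Cnot8* did not pass. None of the 5 tested members was called, that is, had an adjusted p under 0.05, in any of the 7 comparisons made (each of the 4 CNOT7 constructs with vector, and each of the 3 mutants with wild type CNOT7), where 0% of all tested genes were called by edgeR and by DESeq2. At an unadjusted p under 0.05 the comparisons held 14 to 56 genes and 0 members. The most negative of the 35 member values was *Cnot6* in M141R against CNOT7, at -1.06 (SE 0.61, 95% interval -2.25 to 0.13), and the most positive *Cnot6l* in the same comparison, at 0.64 (SE 0.49, -0.33 to 1.61). An exact two-sided permutation test of each of the 7 members in each comparison gave no p below 0.0714. It took the libraries as unpaired, although same-numbered inputs deviated together, and could then have reached 0.00794.

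The other members had few counts in input, and no construct stood out. The scaffold *Cnot1* had 7, 27, 26, 10 and 6 counts in replicates 6 to 10 with CNOT7, 7, 16, 9 and 13 with D40A, and 6, 23, 15, 4 and 18 with E247A/Y260A. It had 11, 11, 14, 13 and 28 with M141R and 20, 20, 16, 7 and 17 with vector. The ranges of all 5 constructs overlapped. *Cnot3* had 2 to 18 counts with CNOT7, 4 to 14 with D40A, 3 to 18 with E247A/Y260A, 7 to 22 with M141R and 9 to 15 with vector. *Cnot6* ranged from 1 to 19 over the inputs and *Cnot6l* from 2 to 26, with the highest *Cnot6l* count in vector input replicate 10. *Cnot2* had 0 to 9 and *Cnot8* 0 to 9 counts.

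In the RIP libraries the members were near the limit of detection. *Cnot7* had 149 counts over the 24 RIP libraries, *Cnot1* 80, *Cnot6l* 30, *Cnot2* 28, *Cnot3* 27, *Cnot6* 25 and *Cnot8* 22. At most 3 counts, taken as the floor, were found in 8 of 24 RIP libraries for *Cnot7*, 17 for *Cnot1*, 21 for *Cnot2* and *Cnot6l*, 22 for *Cnot3* and *Cnot6*, and 23 for *Cnot8*. Replicates 6 to 10 had 10, 7, 5, 3 and 3 *Cnot7* counts in CNOT7 RIP, 7, 6, 3, 6 and 3 in E247A/Y260A RIP, 14, 6, 6, 0 and 2 in M141R RIP and 6, 9, 5, 5 and 2 in vector RIP. Replicates 6, 8, 9 and 10 of D40A RIP had 12, 8, 18 and 3. The RIP counts on the *Cnot7* model thus overlapped between cells with and without the FLAG-tagged protein. In CPM, *Cnot7* stood at 85.9 ± 29.3 (SD, n = 5) in CNOT7 RIP, 94.2 ± 41.8 (n = 4) in D40A RIP, 76.4 ± 12.9 in E247A/Y260A RIP, 88.9 ± 70.2 in M141R RIP and 83.4 ± 30.2 in vector RIP (n = 5 each).

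To set the RIP counts against depth, an expected count was taken for each RIP library from the share of the member in the input of the same construct and number, outside the 13 models. *Cnot7* had 149 RIP counts where 343 were expected, a ratio of 0.435 (95% Poisson interval 0.368 to 0.510, which like all such intervals here covers only the counting error of the RIP reads, as these carry no molecular identifiers and may be copies of the same molecule). It fell below the expected count in 23 of 24 libraries. The exception was CNOT7 replicate 10, whose input had 6 *Cnot7* counts. For this and the like counts of libraries below, the share of all genes that reached them was not taken. By construct the *Cnot7* ratio was 0.472 with CNOT7, 0.412 with D40A, 0.438 with E247A/Y260A, 0.406 with M141R and 0.465 with vector. Without D40A replicate 9 it was 0.566 with D40A and 0.461 over all constructs. The constructs differed by less than their intervals, which ran from 0.314 to 0.683 with CNOT7 and from 0.307 to 0.677 with vector. *Cnot3* had 27 RIP counts for 38.4 expected (0.703, 0.463 to 1.02), *Cnot6* 25 for 32.9 (0.759, 0.491 to 1.12) and *Cnot6l* 30 for 34.7 (0.864, 0.583 to 1.23).

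Summed over libraries, *Cnot1*, *Cnot2* and *Cnot8* had more RIP counts than expected. *Cnot1* had 80 RIP counts for 54.2 expected (1.48, 1.17 to 1.84), and 61 for 44.2 without D40A replicate 9. It was above the expected count in 5 of 5 libraries with E247A/Y260A, with 17 counts for 7.85 (2.17, 1.26 to 3.47), and in 1 of 5 with vector, with 8 counts for 10.7 (0.751, 0.324 to 1.48). With E247A/Y260A the excess was slight in replicate 7, at 3 counts for 2.97, and in replicate 8, at 2 for 1.43. *Cnot2* had 28 counts for 8.29 expected (3.38, 2.24 to 4.88), of which 11 came from D40A replicate 9, and 2.05 times the expected count without it. Single libraries were above the expected *Cnot2* count in 9 cases and below in 13. *Cnot8* had 22 for 12.0 (1.84, 1.15 to 2.78), with 12 libraries above and 12 below. With all counts in place of those outside the 13 models every such ratio was far lower, and that of *Cnot1* with E247A/Y260A was 0.0599, so that these ratios are relative to the other genes outside the 13 models.

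**Figure D2:**
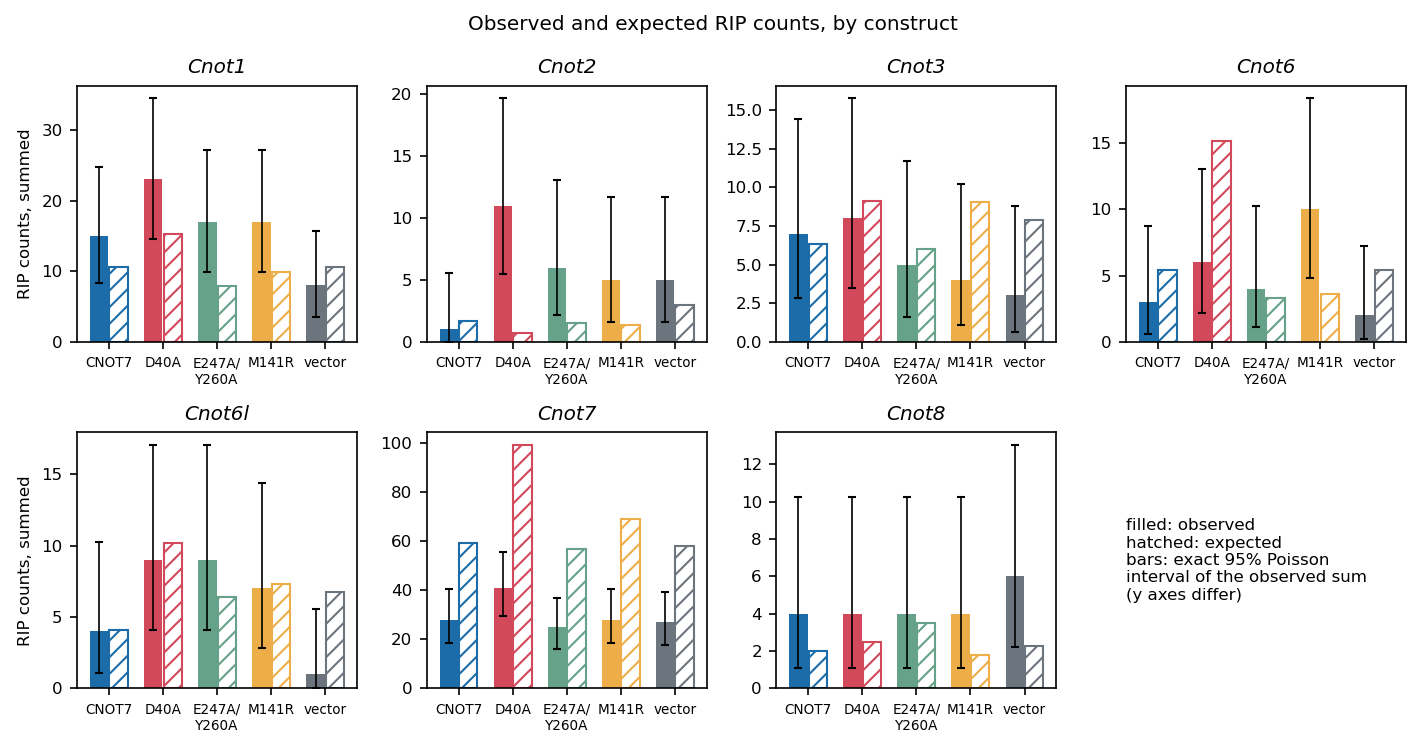
Summed RIP counts of each member by construct (filled bars, with 95% Poisson intervals) beside the counts expected from the inputs of the same number (hatched bars), in 1 panel per member with its own vertical axis. *Cnot7* was observed below its expected count in all 5 constructs, from a ratio of 0.406 in M141R (28 counts for 68.9 expected) to 0.472 in CNOT7 (28 for 59.3).

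In the edgeR fit of all 48 libraries, 6931 genes passed the filter, among them all members but *Cnot2*. The filter used library totals that included the 13 models, and the members passed it through their input counts alone. Calls of members as lower in RIP thus concern genes kept for their input counts. *Cnot7* was lower in RIP than in input in each construct. Its log2 ratio was -1.82 with CNOT7 (SE 0.51, adjusted p = 0.0128), -1.69 with D40A (SE 0.55, adjusted p = 0.0487), -1.94 with E247A/Y260A (SE 0.52, adjusted p = 0.00880), -1.97 with M141R (SE 0.51, adjusted p = 0.00650) and -1.83 with vector (SE 0.51, adjusted p = 0.0125). It was the sole member called in the first 4 of these, and in vector *Cnot6l* was called as well. No member was called higher. Of all tested genes, 10.6% were called lower with CNOT7, 5.42% with D40A, 9.84% with E247A/Y260A, 12.0% with M141R and 12.0% with vector, and 0.707%, 1.27%, 1.07%, 2.84% and 0.750% were called higher in the same order. A count of 1 or 2 of 6 members is not far from those shares. The median gene lay at -0.78, -0.37, -0.62, -0.64 and -0.85 in the same order, and *Cnot7* stood at -1.04, -1.32, -1.33, -1.33 and -0.98 log2 units from it. Between 13.1% (M141R) and 21.7% (vector) of tested genes had a lower log2 ratio than *Cnot7*. On the TMM scale every *Cnot7* RIP library lay below every input library with D40A, E247A/Y260A, M141R and vector, as for 10.4%, 12.1%, 11.9% and 14.3% of all tested genes. With CNOT7 the *Cnot7* libraries overlapped, and 9.67% of genes were separate. In CPM outside the 13 models they also overlapped with D40A, where RIP reached 138 CPM and input began at 115, and with M141R, where RIP reached 170 and input began at 146.

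The direction held for *Cnot7* in every alternative run, but the calls did not. The *Cnot7* call was lost without any of input replicates 6, 7, 8 and 9 or RIP replicates 8, 9 and 10 of CNOT7, without any of the 8 D40A libraries, without any of the 5 inputs of E247A/Y260A or of M141R, and without any of the 5 vector inputs or vector RIP replicate 10. DESeq2 called *Cnot7* lower in 3 of 5 constructs (E247A/Y260A, M141R and vector), at -1.23 to -1.03, and totals without the 13 models in place of TMM scaling called it in 0, at -1.17 to -0.97 (adjusted p = 0.182 to 0.336). With no filter on low counts *Cnot7* was called lower in 2 of 5 constructs (E247A/Y260A and M141R), at -1.96 to -1.69. The scaling also decided the balance of all calls. Over the 5 comparisons TMM gave 49 to 197 genes higher and 376 to 835 lower, DESeq2 184 to 553 higher and 152 to 235 lower, and the totals without the 13 models 93 to 431 higher and 73 to 150 lower. With the replicate number as a block, TMM gave 134 to 351 higher and 992 to 1516 lower, and *Cnot7* was called in all 5. Relative to the median gene, *Cnot7* stayed between -1.57 and -0.78 over all constructs in the settings that kept the filter and all libraries of a comparison, and between -1.70 and -0.57 with each library left out. It was -0.58 without CNOT7 input replicate 6, -0.57 without D40A RIP replicate 9, -0.63 without M141R RIP replicate 9 and -0.61 without vector RIP replicate 10. Without 1 library the log2 ratio of *Cnot7* itself was -1.84 to -1.16 with CNOT7, -1.80 to -1.004 with D40A, -1.86 to -1.31 with E247A/Y260A, -2.30 to -1.46 with M141R and -1.87 to -1.43 with vector. The values nearest 0 with CNOT7 and D40A came without input replicate 6 of that construct.

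**Figure D3:**
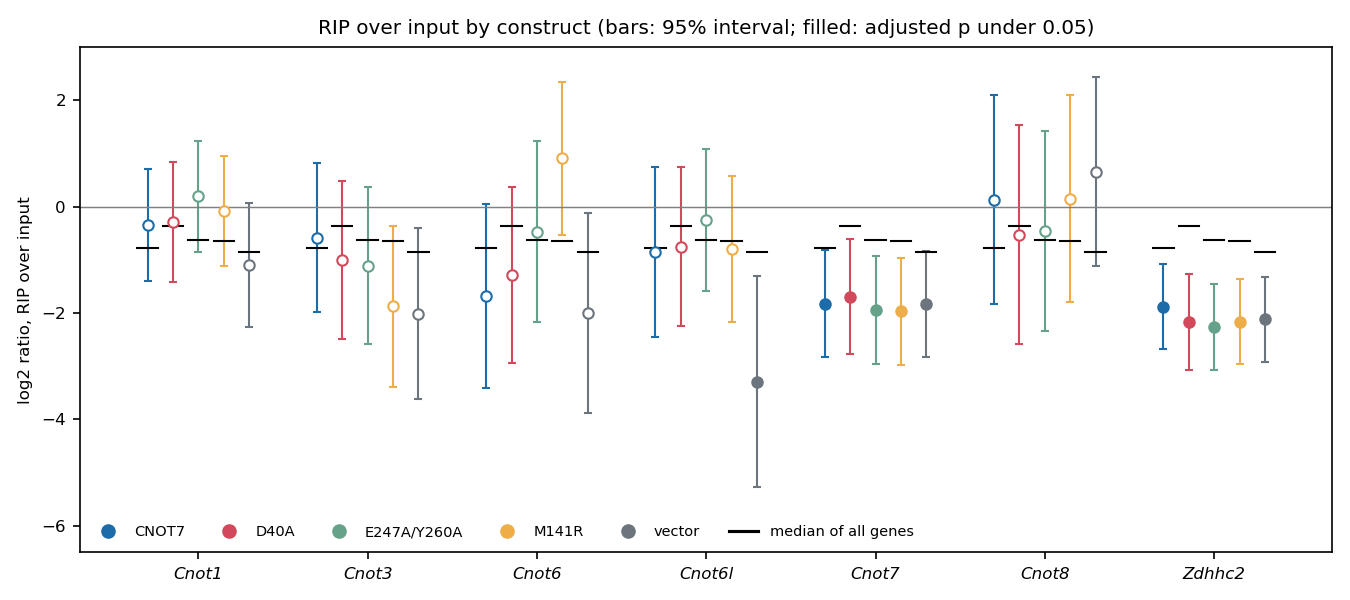
Log2 ratio of RIP over input for each tested member and *Zdhhc2*, by construct, with 95% intervals, filled points where the adjusted p was under 0.05 and black dashes at the median of all tested genes. *Cnot7* lies between -1.97 and -1.69 and *Zdhhc2* between -2.26 and -1.88, filled throughout, while the other members scatter about wide intervals with *Cnot6l* in vector as the lone filled point.

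The call of *Cnot6l*, a CCR4-type deadenylase, rested on few counts. In vector input it had 5, 4, 11, 8 and 26 counts in replicates 6 to 10, and in vector RIP 0, 0, 0, 1 and 0. The log2 ratio was -3.29 (SE 1.01, adjusted p = 0.0242), and the single RIP count stood against 6.77 expected, a ratio of 0.148 with a counting interval of 0.00374 to 0.823. Without vector RIP replicate 9, which held that count, the RIP group was at 0 and no ratio can be given, and with any other vector library left out the ratio was -3.33 to -2.56, the highest without vector input replicate 10. The *Cnot6l* call was lost without any of vector input replicates 7, 8, 9 and 10 or vector RIP replicates 6, 7, 8 and 10. In the other constructs *Cnot6l* had log2 ratios of -0.86 (CNOT7), -0.76 (D40A), -0.26 (E247A/Y260A) and -0.80 (M141R), none called, and those of the last 2 turned positive by DESeq2. The ratio with D40A was -2.29 without D40A RIP replicate 9 and between -0.86 and -0.40 with any other library of D40A left out. That with CNOT7 ran from -1.42 without CNOT7 RIP replicate 9 to -0.32 without CNOT7 input replicate 8. Those with E247A/Y260A and M141R ran from -0.46 and -1.35 without RIP replicate 9 of the construct to 0.27 and -0.27 without its RIP replicate 6.

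*Cnot3*, of the NOT module, had low RIP counts throughout and was called in a pair of constructs once the replicate number was a block in the fit. The block raised the lower calls over all 6931 tested genes to 992 to 1516, from 376 to 835, so the gain was not particular to *Cnot3*. In M141R the inputs had 14, 22, 15, 7 and 10 counts and the RIP libraries 2, 0, 1, 0 and 1, with a log2 ratio of -1.88 (SE 0.77, adjusted p = 0.0869). With the block it was -1.87 (adjusted p = 0.0418). In vector the inputs had 12, 13, 10, 9 and 15 and the RIP libraries 0, 0, 2, 1 and 0, with a log2 ratio of -2.01 (SE 0.82, adjusted p = 0.0904), and with the block -2.05 (adjusted p = 0.0438). *Cnot3* was also called in vector without vector RIP replicate 8, at -3.07 (adjusted p = 0.0477). In the remaining constructs its log2 ratio was -0.58 (CNOT7), -1.01 (D40A) and -1.11 (E247A/Y260A). Single libraries moved these values. With CNOT7 the *Cnot3* ratio reached -0.059 without CNOT7 input replicate 6. With D40A it ran from -1.76 without D40A RIP replicate 6 to -0.49 without D40A input replicate 8, and with E247A/Y260A from -1.92 without RIP replicate 7 to -0.59 without RIP replicate 9 of that construct.

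The remaining tested members were not called in any construct. *Cnot1* had log2 ratios of -0.35 with CNOT7, -0.29 with D40A, 0.19 with E247A/Y260A, -0.08 with M141R and -1.10 with vector, and its sign with CNOT7, D40A or M141R turned under other scalings or fits of fewer groups. With D40A it ran from -1.22 without D40A RIP replicate 9 to 0.10 without D40A RIP replicate 8. With M141R it ran from -0.51 without M141R RIP replicate 9 to 0.27 without M141R RIP replicate 6, with E247A/Y260A it reached 0.67 without input replicate 7 of that construct, and with vector it was -0.67 without vector input replicate 8. Its RIP counts in replicates 6 to 10 were 1, 6, 2, 4 and 2 with CNOT7, 3, 3, 2, 5 and 4 with E247A/Y260A, 2, 4, 1, 9 and 1 with M141R and 2, 1, 1, 3 and 1 with vector. In D40A RIP, *Cnot1* had 3, 0, 19 and 1, so that replicate 9 held 19 of 23 counts. *Cnot6* had log2 ratios of -1.68, -1.29, -0.47, 0.91 and -2.00 in the order CNOT7, D40A, E247A/Y260A, M141R and vector, and *Cnot8* of 0.13, -0.53, -0.46, 0.15 and 0.66. The *Cnot6* and *Cnot8* ratios moved with 1 library left out. For *Cnot6* with D40A, leaving out D40A RIP replicate 9 left 0 counts in the RIP group, so that no ratio can be given, and with any other D40A library left out it was -1.46 to -0.41, the highest without D40A input replicate 9. With CNOT7 it was -2.70 without CNOT7 RIP replicate 8 and -1.15 without CNOT7 input replicate 10, and with vector it was -2.45 without vector RIP replicate 6 and -1.16 without vector input replicate 9. With E247A/Y260A it was -0.10 without RIP replicate 10 of that construct, and with M141R it was 0.58 without M141R RIP replicate 9 and 1.45 without M141R RIP replicate 6. For *Cnot8* such a ratio was had from 4 fits with D40A and 5 with each other construct. It ran from 0.26 to 0.73 with CNOT7, highest without CNOT7 input replicate 9, and from 0.82 to 1.14 with vector, highest without vector input replicate 6. Neither range holds the main value, so these shifts are not particular to the library named. The *Cnot8* sign turned with D40A, at 0.40 without D40A input replicate 10, with E247A/Y260A, at 0.089 without input replicate 6 of that construct, and with M141R, at -0.10 without M141R input replicate 6, where it was 0.66 without M141R input replicate 8. *Cnot6* counts in M141R RIP were 0, 1, 3, 5 and 1 for 3.58 expected in all (2.79 times, 1.34 to 5.14), and in D40A RIP 0, 0, 6 and 0. The SE of these ratios was 0.53 to 1.05, and a change of 1 log2 unit was not detectable at this depth.

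Vector cells tell a pulldown through the FLAG tag from the background of the antibody and beads. No member differed between the RIP libraries of a CNOT7 construct and those of vector, where edgeR and DESeq2 called 0% of all genes in each of the 4 comparisons, with 233 to 479 genes at an unadjusted p under 0.05. *Cnot7* had log2 ratios of -0.03 with CNOT7 (95% interval -1.15 to 1.10), 0.28 with D40A (-0.87 to 1.42), -0.20 with E247A/Y260A (-1.35 to 0.94) and -0.01 with M141R (-1.13 to 1.10). The largest member value was *Cnot6l* with E247A/Y260A, at 2.82 (SE 1.15, unadjusted p = 0.0172, adjusted p = 0.967), from RIP counts of 0, 2, 1, 4 and 2 against 0, 0, 0, 1 and 0 in vector. *Cnot6l* with M141R was at 2.43 (SE 1.20, unadjusted p = 0.0469, adjusted p = 0.960). Both rest on the 1 count of vector RIP replicate 9, since without that library vector RIP was at 0 and no ratio can be given. With any other library of the groups compared left out they were 2.51 to 3.24 and 1.75 to 2.84, neither called, each lowest without replicate 9 of the construct's own RIP. *Cnot1* was at 0.84, 0.69, 0.99 and 0.88 with CNOT7, D40A, E247A/Y260A and M141R, of which the value with CNOT7 was 0.53 without CNOT7 RIP replicate 7 and that with M141R 0.30 without M141R RIP replicate 9, while that with D40A turned to -0.30 without D40A RIP replicate 9. *Cnot8* had at most 3 counts in each RIP library but vector RIP replicate 8, which had 4, and its ratios are not given. These 4 comparisons share the vector libraries, so that like values across constructs are not separate observations.

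The ratio of RIP over input was then compared between each construct and vector. Again 0% of genes and no member passed in any of the 4 comparisons with either tool, with 218 to 343 genes at an unadjusted p under 0.05. *Cnot7* differed from vector in this ratio by 0.01 with CNOT7, 0.14 with D40A, -0.11 with E247A/Y260A and -0.14 with M141R, with 95% intervals that reached from -1.56 to 1.60. *Cnot1* differed by 1.29 with E247A/Y260A (SE 0.80, unadjusted p = 0.112). For *Cnot6l* with E247A/Y260A the difference was 3.03 (SE 1.28, unadjusted p = 0.0215) and for *Cnot6* with M141R it was 2.91 (SE 1.22, unadjusted p = 0.0202), neither of which passed adjustment (adjusted p of 1.00 for both). The *Cnot6l* difference was 2.54 to 3.44 with each library left out other than vector RIP replicate 9, without which none can be given. That of *Cnot6* with M141R ran from 2.28 without vector input replicate 9 to 3.52 without vector RIP replicate 6.

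The gene on the strand opposite *Cnot7* showed the same direction with many more counts. *Zdhhc2* had 973, 2188, 1496, 777 and 40 input counts in replicates 6 to 10 of CNOT7 cells, where replicate 10 stands far below, and 974, 1677, 1372, 934 and 1233 in vector cells. In the RIP libraries it had 92, 104, 89, 40 and 46 with CNOT7, and 56, 81, 64, 55 and 59 with vector. Over all constructs it had 27640 input and 1727 RIP counts, and the RIP counts stood at 0.365 of those expected (0.348 to 0.382), below in 23 of 24 libraries. Its log2 ratio of RIP over input was -1.88 with CNOT7 (adjusted p = 0.000947), -2.17 with D40A (adjusted p = 0.00136), -2.26 with E247A/Y260A (adjusted p = 0.000100), -2.16 with M141R (adjusted p = 0.000167) and -2.11 with vector (adjusted p = 0.000247). The call of *Zdhhc2* was lost without CNOT7 input replicate 7, 8 or 9 and without D40A input replicate 8 or 9. With totals without the 13 models *Zdhhc2* was called in 2 of 5 constructs (E247A/Y260A and M141R), at -1.47 to -1.04 over the 5 and with adjusted p of 0.149 with CNOT7, 0.0548 with D40A and 0.0507 with vector. With CNOT7 the call was also lost with no filter (adjusted p = 0.0637) and with only the groups compared (adjusted p = 0.192). *Zdhhc2* fell in the vector cells too, as *Cnot7* did.

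Across libraries the pair of overlapping genes did not move together once CNOT7 input replicate 10 was set aside. Over the 24 inputs their TMM-scaled log2 CPM values had a Pearson r of 0.68 and a Spearman rho of -0.06, and without that library, a choice made after seeing the data, they were -0.27 and -0.21 (n = 23). The inputs share their normalization and, within a number, deviate together, so these are descriptions. In CNOT7 input replicate 10 the log2 difference from the median of the other inputs was -2.49 for *Cnot7* and -4.01 for *Zdhhc2*. The *Zdhhc2* count per *Cnot7* count was 6.60 to 25.6 in input (median 16.0) and 5.71 to 29.5 in RIP (median 11.7, n = 23, since 1 library had no *Cnot7* count).

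**Figure D4:**
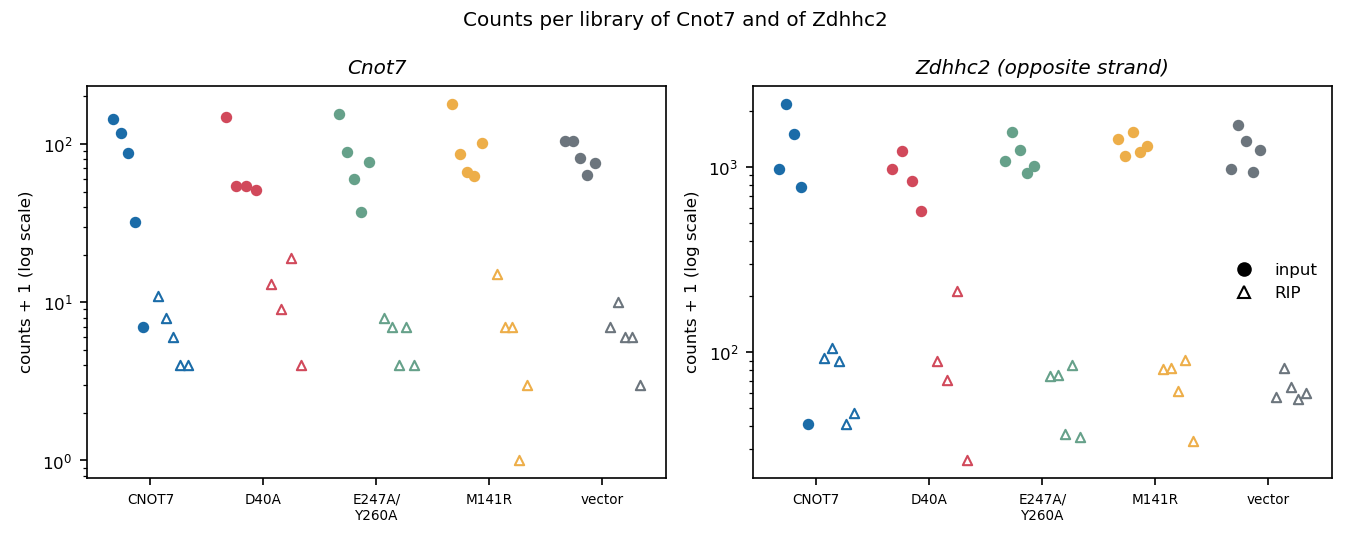
Counts plus 1 per library, on a log axis, of *Cnot7* and of *Zdhhc2* on the opposite strand, by construct, for input and RIP libraries (1 point each). *Zdhhc2* input counts lie between 577 and 2188 apart from CNOT7 input replicate 10 at 40, and *Cnot7* RIP counts lie between 0 and 18.

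The other models opposite a member were read in the same way. 4930513N10Rik, opposite the 5′ end of *Cnot1*, had 84 RIP counts for 21.2 expected (3.96, 3.16 to 4.90) and was above the expected count in 20 of 24 libraries. *Leng1*, opposite *Cnot3*, had 67 for 52.7 (1.27, 0.984 to 1.61), and *Vps37a* 14 for 9.29. Opposite *Cnot2*, 5330438D12Rik had 1 RIP count for 5.10 expected, and Gm12192 had 0 for 2.30. 4930513N10Rik and *Leng1* were tested and not called in any comparison of RIP with input, and the other 3 did not pass the filter.

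A list of 38 other genes of deadenylation and mRNA decay (further CCR4-NOT subunits, other deadenylases, poly(A) binding proteins, BTG and TOB adaptors, RNA-binding specificity factors and decapping proteins) was examined beside the members. Of the 10 with enough counts in the inputs, 0 were called in the 7 input comparisons. Of the 17 tested with the RIP libraries, 3 were called lower in RIP than in input with CNOT7, 1 with E247A/Y260A, 2 with vector and 0 with D40A or M141R, and 0 were called higher. Of all tested genes, 10.6%, 9.84%, 12.0%, 5.42% and 12.0% were called lower in these comparisons, in the order CNOT7, E247A/Y260A, vector, D40A and M141R, so that the counts of list genes lie near that background. Their median log2 ratio was -0.89 to -0.20, where that of all genes was -0.85 to -0.37. *Angel2*, of the CCR4-like nuclease family, had 48 input counts with CNOT7 and 0 in all 5 RIP libraries, which put it at least 2.47-fold lower by the floor of 3 counts over the group. With E247A/Y260A, *Angel2* had 1 RIP count for 7.09 expected (0.141, 0.00357 to 0.786). *Pde12*, a 2′,5′-phosphodiesterase and mitochondrial deadenylase, had 1 for 7.61 with CNOT7 (0.131, 0.00333 to 0.732). *Nanos1*, an RNA-binding repressor, had 0 in all CNOT7 RIP libraries for 4.83 expected (0, 0 to 0.764). In vector, *Cnot11*, a further subunit, had 0 in all RIP libraries for 3.74 expected (0, 0 to 0.987). *Btg1*, an adaptor of the CAF1 nucleases, had 3 for 13.5 there (0.222, 0.0458 to 0.649).

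Of the list genes that were not called, *Noct*, *Cpeb3*, *Edc3* and *Pabpc1* had the most input counts. *Noct*, which encodes the CCR4-like protein nocturnin, had 64 to 295 counts per input library (median 152.5), *Cpeb3* had a median of 133 and *Edc3*, a decapping enhancer, of 89.5. *Noct* had 312 RIP counts in D40A, of which 263 were in replicate 9, for 136 expected. Its log2 ratio of RIP over input was -1.29 with CNOT7 (adjusted p = 0.0765), -0.15 with D40A, -0.81 with E247A/Y260A, -0.46 with M141R and -1.07 with vector. *Pabpc1*, the main cytoplasmic poly(A) binding protein, had a median of 9 input counts. Its RIP counts were above those expected in each construct, from 19 for 10.8 with E247A/Y260A to 22 for 6.30 with CNOT7, and its log2 ratio was 0.91 with CNOT7 (SE 0.59, adjusted p = 0.316), 1.13 with D40A (adjusted p = 0.287), 0.027 with E247A/Y260A (adjusted p = 0.985), 0.64 with M141R (adjusted p = 0.503) and 0.29 with vector (adjusted p = 0.780).

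The genes most like a member over the inputs changed when CNOT7 input replicate 10 was left out. Among 2850 genes with a mean of at least 10 input counts, the TMM-scaled log2 CPM of *Dagla* (Pearson r = 0.93), Gm11906 (0.92) and 4933400F21Rik (0.92) were most like *Cnot7* over 24 libraries, and those of Gm10425, 2210411M09Rik and *Junos* (0.85 each) over 23. For *Cnot1* they were *Rec114* (0.68), *Nmt2* (0.67) and *Ak3* (0.65) over 24 libraries, and *Nmt2* (0.73), Gm4117 (0.70) and *Mycbp* (0.69) over 23. *Nmt2* was the only name the lists had in common.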

How the data were processed

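RIP and input RNA of 4T1 cells with 5 constructs was sequenced from rRNA-depleted directional libraries. The authors deposited raw read counts, not normalized, for 26899 Ensembl gene identifiers. The submitters' processing notes name BWA, HTSeq and the mm9 build, without versions, and the strand setting is not given in the sources used here. Positions and overlaps were taken from GENCODE M21 on GRCm38, in which 344 identifiers are absent, and no coordinate was converted.

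Sample names in the column headers gave each library its group, and 0 columns of per-sample values were unused. The main test was the two-sided quasi-likelihood test (edgeR 4.0.16, R 4.3.3), after filterByExpr and TMM scaling, with Benjamini-Hochberg adjustment over all genes tested and a threshold of 0.05. Inputs were compared in a fit of the 24 inputs, and RIP comparisons in a fit of all 48 libraries with 1 mean per group. The scripts were tested on simulated data. CPM, expected counts and levels per kilobase of annotated exon used totals outside the 13 gene models with the most summed RIP counts. Alternatives were DESeq2 1.42.0, library size alone, totals without the 13 models, no filter, a replicate block, only the groups compared and each library left out, as well as all 48 libraries or a minimum of 10 counts for the inputs. Sequences were read with Python 3.11.15 and Biopython 1.88.

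The text names the 7 members, models that overlap them, list genes that were called or had the most input counts, and the 3 genes most like *Cnot7* and *Cnot1*. The members and lists were chosen with earlier results of these data known. Replicates were compared first: the lowest chi-square per degree of freedom over 92 pairs of replicates was 4.98, so none was taken as a repeated library. RIP and input of a construct share a sample number and the input is part of the same lysate, so within a construct the numbers pair the libraries. Deviations from the group means of same-numbered libraries had correlations of 0.168 or more between inputs, over 0.1 in every pair, and of 0.00923 or more between RIP and input.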

Additional observations from a re-analysis of the deposited data

Results flagged for a closer look

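Among 62 tests of a group of 4 or 5 libraries for a library far from the others, 4 stood out, where chance gives about 1 in 20. In D40A RIP, replicate 9 was farthest for *Cnot2*, with 11 counts where the other 3 libraries had 0, so that the gap was the whole range (value 1). The same library was farthest for *Cnot6*, with 6 counts where the others had 0 (value 1). Both are low counts in the most deeply counted RIP library.

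In M141R input, replicate 6 was highest for *Cnot7*, with 178 counts against 62 to 101 in the others (gap over range 0.865 in TMM-scaled log2 CPM). In CNOT7 input, replicate 10 was lowest for *Zdhhc2*, with 40 counts against 777 to 2188 (gap over range 0.913). Both exceed Dixon's critical value for their group size. What set these libraries apart was not tested.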

How the results depend on the processing

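No member was called in a comparison of inputs, of RIP with vector RIP or of RIP over input with vector under any alternative run. Over all genes these comparisons had 0 calls in the main fit, and without the filter up to 45 between inputs and 1 or 2 with RIP, and with all 48 libraries in the fit up to 2 between inputs. Over the 127 log2 ratios of tested members and *Zdhhc2*, 1801 of 2064 values under alternatives kept direction and side of the threshold, 64 lost and 22 gained a call, and 177 changed sign. Of these 177, spread over 63 ratios, 151 were uncalled and had moved by less than 1 SE, so the sign of many uncalled ratios is not settled.

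The count of members called lower in RIP than in input did not hold. With CNOT7, D40A, E247A/Y260A, M141R and vector it was 1, 1, 1, 1 and 2 in the main fit. DESeq2 gave 0 with CNOT7, 0 with D40A and 1 with vector, where *Cnot6l* had no adjusted p. Library size alone gave 6 in all 5, where 6672 to 6875 of all 6931 tested genes were called lower and the median gene lay at -5.21 to -4.58. Totals without the 13 models gave 0 in all 5. No filter gave 0 with CNOT7, D40A and vector. Fits of only the groups compared gave 0 with CNOT7, D40A and M141R and 1 with vector. Over all tested genes, no filter gave 235 to 486 lower calls of 26899, and only the groups compared gave 46 to 292 of 2378 to 3301. Leaving out 1 library gave 0 to 1 with CNOT7, E247A/Y260A and M141R, 0 with D40A and 0 to 2 with vector. The causes were not tested.

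With the replicate number as a block, members called were 2 with M141R and 3 with vector, through *Cnot3*, and the block changed no other member count. Lower calls over all 6931 tested genes rose too, to 992 to 1516 with the block from 376 to 835 in the main fit. The added member calls are thus not particular to the members. With the block *Cnot7* was at -2.07 to -1.71.

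The values given next include all that changed sign and moved by 1 SE or more or were called, and the 5 called ones all came from library size alone. For RIP over input, *Cnot1* with CNOT7 was 0.32 by DESeq2, 0.50 with totals without the 13 models, 0.25 with only the groups compared and -0.54 to 0.33 with each library left out, the highest without CNOT7 input replicate 8. *Cnot1* with M141R was 0.74, 0.60 and 0.68 in the first 3 of these settings, and with D40A 0.31 with only the groups compared and -1.22 (without D40A RIP replicate 9) to 0.10 (without D40A RIP replicate 8) with each library left out. *Cnot6l* with E247A/Y260A was 0.48, 0.50 and 0.43, and with M141R 0.027 by DESeq2. *Cnot3* with CNOT7 was 0.26 with totals without the 13 models. Library size alone put *Cnot8* at -3.93 with CNOT7, -3.84 with M141R and -3.74 with vector, *Cnot1* with E247A/Y260A at -4.07 and *Cnot6* with M141R at -3.04. With each library left out, D40A RIP against vector RIP was -0.30 to 1.04 for *Cnot1* and -3.32 to 1.37 for *Cnot6*, and the difference in RIP over input -0.20 to 1.13 and -3.39 to 1.30, each lowest without D40A RIP replicate 9, where *Cnot6* had 0 RIP counts left and its lowest values are set by the fit. Between inputs, *Cnot6* in D40A against vector was -0.72 (without D40A input replicate 9) to 0.35. *Cnot6l* against vector was -0.59 to 0.20 with D40A, -0.46 to 0.32 with E247A/Y260A and -0.35 to 0.44 with M141R, each highest without vector input replicate 10. The observed over expected ratio of *Cnot1* with E247A/Y260A was 0.0599 with all counts, and the Pearson r of *Cnot7* and *Zdhhc2* was -0.27 without CNOT7 input replicate 10. Depth limits the RIP values, since 6 of the 7 members had at most 3 counts in 17 or more of 24 RIP libraries.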
